A study of Mus musculus with 15 samples.

Results

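The 8 genes described here encode the albumin family of plasma proteins (*Alb*, *Afp*, *Afm* and *Gc*) and 4 further carriers secreted by the liver (*Ttr*, *Rbp4*, *Ahsg* and *Fetub*). They were taken by symbol from a count matrix of 55984 gene symbols. The rule uses no measured value, although earlier results of these data were known when the genes were chosen. All 8 were present, and all 8 were among the 17488 genes that passed the filter on low counts and were tested. RNA-seq was performed on hepatocytes from livers of wild-type C57BL/6JJcl male mice aged 7 to 15 weeks, stained for DNA with a Hoechst dye and sorted by flow cytometry. The 2n-whole population holds diploid cells, and 4n-whole holds all tetraploid cells, with either a single 4n nucleus or a pair of 2n nuclei. The 4n-bottom population (lower Hoechst height) is enriched for binucleated cells, while 4n-top (higher Hoechst height, a single round of sorting) is enriched for mononucleated cells but remains a mixture. There were 4 libraries each of 2n-whole, 4n-whole and 4n-bottom (mice 1 to 4) and 3 of 4n-top (mice 2, 3 and 4), since the authors left out the 4n-top RNA of mouse 1 for its poor quality. After sorting, 2n cells were pelleted at a higher centrifugal force than 4n cells, so ploidy and this step cannot be told apart.

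Albumin is the most abundant protein of blood plasma, holds the osmotic pressure of the blood and carries fatty acids, bilirubin, metals and drugs. Its relatives arose by gene duplication and share a fold held together by disulfide bonds. Alpha-fetoprotein (*Afp*) is the albumin of the fetus and is silenced in the liver after birth, afamin (*Afm*) binds vitamin E and stabilises Wnt proteins, and the vitamin D-binding protein (*Gc*) carries vitamin D metabolites and scavenges actin. Transthyretin (*Ttr*) carries thyroid hormone and forms a complex with retinol-binding protein (*Rbp4*), which brings retinol from the liver to other tissues. Fetuin-A (*Ahsg*) keeps calcium phosphate from precipitating in the blood, and fetuin-B (*Fetub*) inhibits the protease that hardens the egg coat.

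The family relationship was visible in the genome (coordinates of GRCm39, GENCODE M39 annotation). *Alb* (chromosome 5, 90608647 to 90624696), *Afp* (90638584 to 90656766) and *Afm* (90666791 to 90701558) lay head to tail on the same strand, with gaps of 13.9 kb and 10.0 kb between the gene bodies. *Gc* (chromosome 5, 89561689 to 89605757) lay 1.003 Mb from *Alb* on the opposite strand. *Ahsg* (chromosome 16, 22710027 to 22718201) and *Fetub* (22736127 to 22758528) were neighbours on the same strand, 17.9 kb apart. *Rbp4* was located on chromosome 19 from 38105066 to 38113754. The canonical transcripts of *Alb*, *Afp* and *Afm* each had 15 exons, and that of *Gc* had 13.

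The 250 bases before the canonical transcription start of each gene were searched on both strands for short motifs of liver promoters. The element GTTAAT was found in the 4 albumin family genes and in 0 of the other 4 members, and it was present in 6.27% of 21542 windows of the same length from protein-coding genes. The 150 bases nearest to the start are given below for the 4 family genes, 5′ to 3′ on the strand of the gene, because they show this shared element, which is in capitals (its reverse complement in *Afm* included). They cover chr5:90608599-90608748 (+ strand) for *Alb*, chr5:90638434-90638583 (+) for *Afp*, chr5:90666641-90666790 (+) for *Afm* and chr5:89605758-89605907 (- strand) for *Gc*.
Alb: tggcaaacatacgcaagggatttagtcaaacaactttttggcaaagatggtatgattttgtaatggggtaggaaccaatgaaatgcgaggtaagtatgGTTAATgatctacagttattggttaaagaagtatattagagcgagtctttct
Afp: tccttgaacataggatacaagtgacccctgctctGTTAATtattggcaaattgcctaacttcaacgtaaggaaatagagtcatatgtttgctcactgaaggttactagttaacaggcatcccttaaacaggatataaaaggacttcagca
Afm: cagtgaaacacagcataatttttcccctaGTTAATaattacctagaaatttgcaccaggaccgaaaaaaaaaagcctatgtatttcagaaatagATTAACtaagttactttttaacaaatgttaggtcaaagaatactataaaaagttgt
Gc: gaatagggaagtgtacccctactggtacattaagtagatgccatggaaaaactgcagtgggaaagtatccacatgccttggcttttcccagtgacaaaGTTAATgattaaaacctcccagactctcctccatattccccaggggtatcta
Counted from the canonical transcription start, this element began at position -52 in both *Alb* and *Gc*. It began at -116 in *Afp*, and at -121 and -56 in *Afm*. The annotated *Alb* gene begins at 90608647, ahead of its canonical start, so the *Alb* window overlaps the gene body. The position of the element in *Alb* therefore depends on the transcript used. A CCAAT box, searched as CCAAT, was found for 5 members and in 36.4% of all windows, and in *Afp* it lay at -109 to -105, next to GTTAAT without overlapping it. The TATA box TATAAA was found in *Afp*, *Afm* and *Rbp4*, and in 11.9% of all windows. The HNF4 site CAAAGTCCA was found in 0 of the 8 windows and in 0.376% of all windows. These matches describe the letters of the sequence and do not show binding.

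The total counts per library ranged from 22049498 to 42096421. Levels below are TMM-scaled counts-per-million (CPM) values, and in these bulk samples a lower level cannot be told apart from fewer cells that express the gene. Because CPM is relative to the rest of each library, a change in the total RNA of a cell is not measured. The 10 hepatocyte markers summed to between 26700 and 37500 CPM in all libraries. Summed over their lists, endothelial markers reached at most 36.7 CPM, Kupffer cell markers 8.61 CPM, stellate cell markers 6.25 CPM and lymphocyte markers 0.556 CPM, and *Trbc2* had 0 counts in every library. The mean of each of these lists was highest in 2n-whole, with 24.6, 5.26, 4.73 and 0.403 CPM in the same order. In 4n-whole the means were 20, 1.73, 3.07 and 0.129 CPM. The erythroid list summed to between 52.7 and 106 CPM through *Alas2*, which hepatocytes also express, with *Hba-a2* and *Hbb-bs* at 0 counts in every library. The cholangiocyte list was higher in 2n-whole (34.7 to 47.3 CPM) than in all 4n libraries (at most 32.0 CPM), mostly through *Sox9* and *Spp1*, whereas *Epcam* and *Krt7* were at 0 counts in 11 of 15 libraries each. Mitochondrial transcripts made up 24.0% ± 2.69 (SD, n = 4) of the counts in 2n-whole and 13.5% ± 4.39 (SD, n = 4) in 4n-whole. The pericentral list, zonation genes of the cells around the central vein, summed to between 725 and 1080 CPM in 2n-whole and between 1150 and 3930 CPM in the 4n libraries. The part of these features in the results below was not tested.

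The 8 genes together took 7.15% ± 0.241 (mean ± SD, 4 libraries) of all counts in 2n-whole, 7.36% ± 0.866 (4 libraries) in 4n-whole, 7.80% ± 0.968 (4 libraries) in 4n-bottom and 8.03% ± 1.17 (3 libraries) in 4n-top. The ranges of the 4 populations overlapped, from 6.27% to 8.90%. *Alb* alone took 6.15% of all counts in the series, behind only the mitochondrial 16S ribosomal RNA gene *mt-Rnr2* with 8.99%, and it made up between 77.1% and 83.8% of the counts of the 8 genes.

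Levels were compared between genes after division by the length of the canonical transcript (CPM per kb, scaled to library totals). *Alb* was highest with 30200 ± 3610 CPM per kb (SD over 15 libraries), followed by *Ttr* with 3550 ± 579, *Rbp4* with 2590 ± 652, *Gc* with 2280 ± 290 and *Ahsg* with 1670 ± 139. *Fetub* (137 ± 21.7 CPM per kb) and *Afm* (90.8 ± 9.73 CPM per kb) formed a lower tier, and *Afp* was at 0.741 ± 0.284 CPM per kb. The ratio of *Alb* to *Ttr* was 8.55 on average, that of *Ahsg* to *Fetub* was 12.3 and that of *Afm* to *Afp* was 134, and in each case the order was the same in 15 of 15 libraries. *Rbp4* and *Gc* were not separated, since *Rbp4* was the higher of the pair in 10 of 15 libraries, and *Fetub* exceeded *Afm* in 14 of 15. The same order of all 8 genes was found in 10 libraries.

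**Figure D1:**
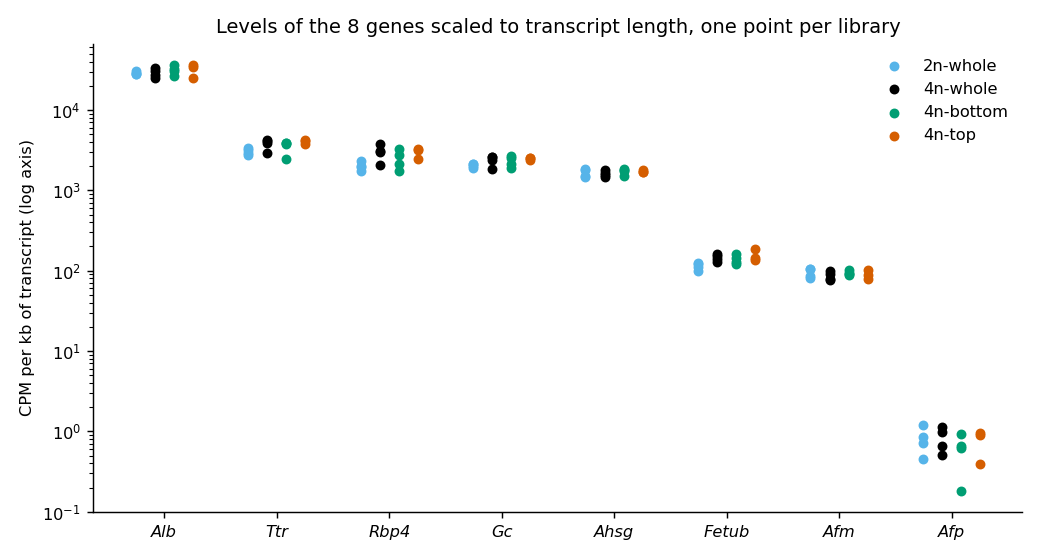
Levels of the 8 genes in CPM per kb of canonical transcript (log axis), with 1 point per library, coloured by population and ordered by the mean. *Alb* stands above all others near 30200, *Ttr*, *Rbp4*, *Gc* and *Ahsg* lie between 1450 and 4280, *Fetub* and *Afm* between 77.2 and 186, and *Afp* at or below 1.19.

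*Afp*, the fetal relative of albumin, was detected at a low level in every library. Its counts were 104, 34, 56 and 58 in the 2n-whole libraries of mice 1 to 4, 89, 45, 51 and 30 in 4n-whole, 14, 52, 60 and 52 in 4n-bottom, and 34, 48 and 54 in 4n-top (mice 2 to 4). The populations overlapped, and the lowest value was that of 4n-bottom from mouse 1. The gene *Gm43449* lies over *Afp* on the opposite strand and had 55.3% as many counts, with at most 53 in a library. The kit was stranded, but the strand setting of the counting is not given in the sources used here, so reads of the pair may not be fully told apart. The repressors *Zhx2* and *Zbtb20*, which silence *Afp* after birth, were expressed in 2n-whole at 32.4 ± 6.47 and 455 ± 55.9 CPM (SD, n = 4) and in 4n-whole at 31.4 ± 3.74 and 410 ± 92.6 CPM (SD, n = 4). Of 9 other genes that are active in the perinatal liver, 7 did not pass the filter on low counts and were not tested. *H19*, *Igf2*, *Gpc3* and *Dlk1* each had at most 6 counts in any library, *Spink1* 8, *Lin28b* 12 and *Igf2bp1* 24. *Igf2bp1* and *Lin28b* were at 0.369 ± 0.319 and 0.157 ± 0.2 CPM in 2n-whole (SD, n = 4). In 4n-whole each was at 0.0129 ± 0.0257 CPM (SD, n = 4). Of the 2 tested genes of this list, only *Lpl*, lipoprotein lipase, was called, in 4n-whole against 2n-whole, beside 3.47% of all tested genes. Its log2 fold change was 1.21 (standard error 0.29, edgeR, adjusted p = 0.0131), at 4.51 ± 2.16 and 2.01 ± 1.26 CPM (SD, n = 4).

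The first comparison was that of 4n-whole with 2n-whole, which sets all tetraploid against diploid hepatocytes. Genes were called where edgeR's quasi-likelihood test, with the mouse in the model and Benjamini-Hochberg adjustment over all tested genes, gave an adjusted p-value under 0.05 and where the log2 fold change exceeded 0.5 in either direction. None of the 8 members was called (0 by edgeR and 0 by DESeq2 with the same model, while 4 had an unadjusted p-value under 0.05, as did 20.4% of all tested genes), beside 3.47% of all tested genes. At the adjusted p-value alone, *Rbp4* was higher and *Afm* lower in 4n-whole, which is 2 of 8 members beside 5.47% of all tested genes (1 higher beside 2.93%, and 1 lower beside 2.54%). The median log2 fold change was -0.07 over the members and -0.007 over all tested genes, and the median of the absolute log2 fold changes was 0.177 over the members and 0.296 over all tested genes. The populations overlapped for all 8 members, whereas 5.80% of all tested genes showed no overlap.

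*Rbp4* was expressed at 1910, 1810, 2380 and 2130 CPM in the 2n-whole libraries of mice 1 to 4 and at 1900, 2490, 2900 and 3210 CPM in 4n-whole. In mouse 1 the log2 difference was -0.01, whereas the 4n-whole library was the higher one in mice 2, 3 and 4. The fitted change was 1.26-fold, a log2 fold change of 0.33 (standard error 0.09, 95% confidence interval 0.15 to 0.51, edgeR, adjusted p = 0.0253). The adjusted p-value did not pass 0.05 without mouse 2 (adjusted p = 0.111), without mouse 4 (adjusted p = 0.334) or with no mouse in the model (edgeR, adjusted p = 0.468), where the log2 fold change stayed between 0.24 and 0.35. With scaling to library totals alone, which moved the median of all tested genes by 0.20, the value for *Rbp4* was 0.54. In the same libraries the pericentral list summed to 725, 800, 1080 and 1070 CPM in 2n-whole and to 3230, 1210, 3430 and 3710 CPM in 4n-whole (mice 1 to 4). The part of this in the difference of *Rbp4* was not tested. *Ffar4*, a fatty acid receptor gene that overlaps *Rbp4* on the opposite strand, had at most 22 counts.

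*Afm* was expressed at 239, 251, 208 and 201 CPM in 2n-whole and at 211, 152, 199 and 153 CPM in 4n-whole, in the order of mice 1 to 4. It was lower in 4n-whole in all 4 mice, by a log2 difference from -0.73 in mouse 2 to -0.07 in mouse 3. The fitted log2 fold change was -0.33 (standard error 0.10, 95% confidence interval -0.53 to -0.13, adjusted p = 0.0409, edgeR). The adjusted p-value did not pass 0.05 without mouse 2 (-0.22, adjusted p = 0.331), without mouse 4 (-0.32, adjusted p = 0.249) or with no mouse in the model (-0.33, adjusted p = 0.361, edgeR). With scaling to library totals alone it was -0.13 (edgeR, adjusted p = 0.421).

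*Alb* was expressed at 60600, 63600, 69600 and 64800 CPM in 2n-whole and at 49800, 55200, 68400 and 49600 CPM in 4n-whole. The 4n-whole value was the lower one in all 4 mice, although that of mouse 3 lay within the range of 2n-whole. The log2 fold change was -0.23 (standard error 0.07, 95% confidence interval -0.37 to -0.08, adjusted p = 0.0575, edgeR), and DESeq2 with the same model gave -0.24 with an adjusted p of 0.037. *Ahsg* was at 2650, 2300, 2230 and 2790 CPM in 2n-whole and at 2420, 1780, 2200 and 2080 CPM in 4n-whole. It was also lower in 4n-whole in all 4 mice, and the 4n-whole value of mouse 1 lay within the range of 2n-whole. Its log2 fold change was -0.23 (95% confidence interval -0.41 to -0.06, adjusted p = 0.103, edgeR). As a share of the counts outside mitochondrial genes and 18S ribosomal RNA, *Alb* took 7.96% ± 0.517 (SD, n = 4) in 2n-whole and 7.00% ± 0.913 (SD, n = 4) in 4n-whole. As a share of all counts the values were 5.92% ± 0.245 and 5.90% ± 0.761 (SD, n = 4), and with scaling to library totals alone the log2 fold change of *Alb* was -0.02. The 10 hepatocyte markers had a median log2 fold change of -0.16 in this comparison (0.05 with library totals alone). With edgeR, 3 of them passed the adjusted p-value, all lower in 4n-whole, beside 2.54% of all tested genes. The 10 markers summed to 36700, 35100, 35400 and 36300 CPM in 2n-whole and to 34000, 26700, 36400 and 29700 CPM in 4n-whole (mice 1 to 4). The part of this in the results for the members was not tested.

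The other members moved less. The log2 fold change was -0.02 for *Gc* (95% confidence interval -0.16 to 0.13), 0.08 for *Ttr* (-0.08 to 0.24) and 0.13 for *Fetub* (-0.04 to 0.30), so for these 3 genes a change above the limit of 0.5 lay outside the interval. *Fetub* was the higher in 4n-whole in all 4 mice, by 0.05 to 0.21. For *Afp*, whose log2 fold change was -0.12, the interval of -1.08 to 0.83 did not exclude such a change at this depth. *Rbp4* and *Ttr*, whose proteins circulate as a complex, had log2 fold changes of 0.33 and 0.08, and *Ahsg* and its neighbour *Fetub* had -0.23 and 0.13. The difference between the genes of a pair was not tested.

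**Figure D2:**
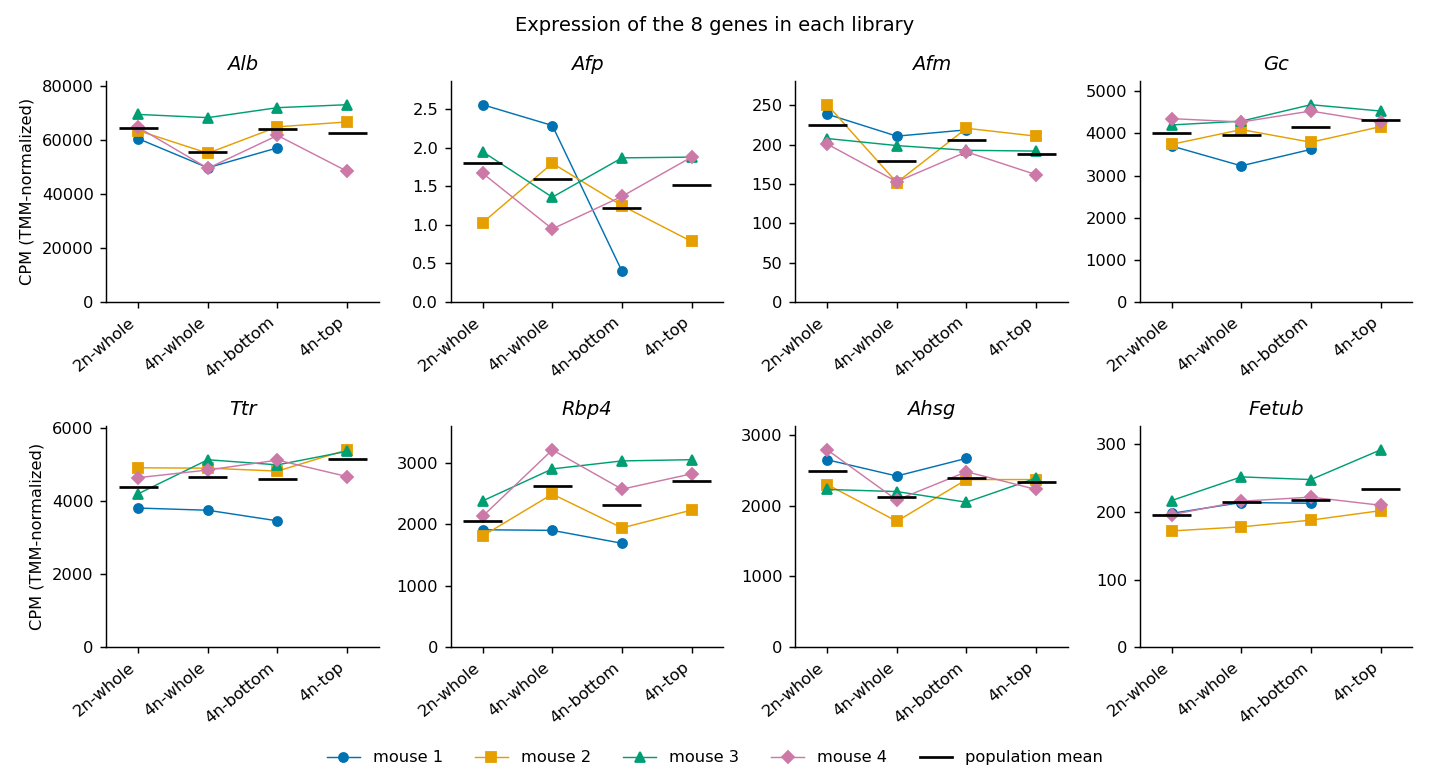
TMM-normalized CPM of each gene (vertical axis from 0) in the 4 populations. Each point is a library, lines join the libraries of a mouse, and black bars are population means. *Rbp4* of mice 2, 3 and 4 is higher in 4n-whole than in 2n-whole, *Afm* is lower in all 4 mice, and the points of the populations overlap for every gene.

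The second comparison was that of 4n-top with 4n-bottom, which sets tetraploid cells enriched for mononucleated against binucleated cells. None of the 8 members was called by edgeR or by DESeq2 with the same model, and 0.0114% of all tested genes were called by edgeR (2 genes, against 49 by DESeq2). With edgeR, 0 members and 2.79% of all tested genes had an unadjusted p-value under 0.05. The populations overlapped for all 8 members, and 3.15% of all tested genes showed no overlap. The median absolute log2 fold change was 0.084 over the members and 0.173 over all tested genes. The intervals were narrow for 7 of the 8 genes. *Gc* had a log2 fold change of 0.00 (95% confidence interval -0.17 to 0.16), *Ahsg* 0.02 (-0.17 to 0.21), *Ttr* 0.08 (-0.09 to 0.25) and *Fetub* 0.10 (-0.09 to 0.28). *Alb* had -0.08 (-0.24 to 0.08) and *Afm* -0.09 (-0.30 to 0.13).

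*Rbp4* had the largest change of these 7 genes, a log2 fold change of 0.14 (95% confidence interval -0.05 to 0.34, adjusted p = 1, edgeR). It was expressed at 1690, 1940, 3030 and 2570 CPM in 4n-bottom (mice 1 to 4) and at 2230, 3050 and 2820 CPM in 4n-top (mice 2 to 4), and was the higher in 4n-top in 3 of 3 mice, by 0.01 to 0.20 on the log2 scale. *Alb* was expressed at 57200, 65000, 72100 and 61800 CPM in 4n-bottom and at 66800, 73200 and 48500 CPM in 4n-top. Its 4n-top value was low in mouse 4 alone, with a log2 difference of -0.35, against 0.04 and 0.02 in mice 2 and 3. For *Afp* the interval was -0.75 to 1.32.

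The 4n-bottom and 4n-top populations were also each compared with 2n-whole, and these comparisons share the 2n-whole libraries. In 4n-bottom against 2n-whole, 0 members were called by edgeR or by DESeq2 with the same model, beside 0.463% of all tested genes, and 0 had an unadjusted p-value under 0.05, beside 10.2% of all tested genes. *Fetub* was the higher in 4n-bottom in all 4 mice (198, 172, 217 and 196 CPM in 2n-whole, 213, 188, 248 and 222 CPM in 4n-bottom), but the populations overlapped and the log2 fold change of 0.15 (95% confidence interval -0.02 to 0.32) had an adjusted p of 0.552 (edgeR). *Afm* was lower in all 4 mice, with log2 differences of -0.18 to -0.07 and an adjusted p of 0.71 (edgeR). *Alb* had a log2 fold change of -0.02 (95% confidence interval -0.16 to 0.12). All 8 members overlapped between the populations, and 3.52% of all tested genes did not.

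In 4n-top against 2n-whole, 0 members were called by edgeR or by DESeq2 with the same model, beside 0.961% of all tested genes, and 2 had an unadjusted p-value under 0.05, beside 11.3% of all tested genes. These were *Rbp4*, with a log2 fold change of 0.28 (95% confidence interval 0.08 to 0.48, adjusted p = 0.227, edgeR), and *Fetub*, with 0.25 (0.06 to 0.44, adjusted p = 0.261, edgeR). Both were higher in 4n-top in 3 of 3 mice. *Fetub* was at 202, 292 and 210 CPM in 4n-top (mice 2 to 4), with the highest value in mouse 3. All 8 members overlapped, and 9.21% of all tested genes did not.

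**Figure D3:**
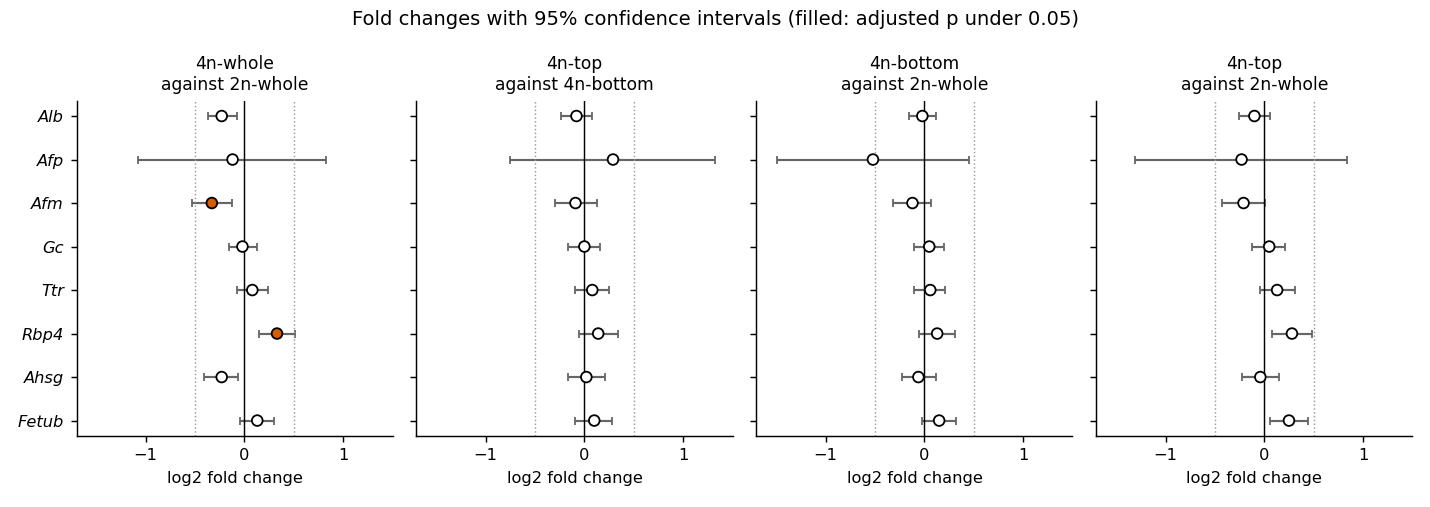
Log2 fold changes (horizontal axis) of the 8 genes in the 4 comparisons, with 95% confidence intervals from edgeR. Filled points passed an adjusted p-value of 0.05, which were *Rbp4* at 0.33 and *Afm* at -0.33 in 4n-whole against 2n-whole, and dotted lines mark an absolute log2 fold change of 0.5. The interval of *Afp* is the widest in each panel.

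The mouse accounted for more of the variation of most members than the population did. Either factor takes a part of the variation even without an effect, and the shares over all tested genes were not computed. Of the sum of squares of log2 CPM over the 15 libraries, the mouse took 72.7% for *Gc*, 72% for *Fetub*, 66.9% for *Ttr*, 61.2% for *Rbp4* and 57.4% for *Alb* after the population was accounted for. The population took 4.12%, 19.4%, 5.79%, 19.6% and 23.2% for the same genes after the mouse was accounted for. For *Afm* (31.1% mouse, 38.6% population) and *Ahsg* (33.5% mouse, 34% population) the shares were close, and for *Afp* the mouse and the population together took 25.8%. The SD of each member was also ranked among all tested genes, which were not matched for level. The part of the high counts of most members in these ranks was not tested. The SD of log2 CPM was 0.146 for *Gc*, and 4.37% of the tested genes had a smaller one. For *Ahsg* the share of genes with a smaller SD was 7.19%, for *Alb* 13.6%, for *Rbp4* 33.9% and for *Afp* 60.2%.

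The mice did not rank alike for all members. *Alb* averaged 70800 CPM in the 4 libraries of mouse 3, which all lay at or above 68400 CPM, while no library of mice 1, 2 and 4 exceeded 66800 CPM. *Gc*, *Ttr* and *Rbp4* were lowest in mouse 1, with means of 3520, 3660 and 1840 CPM over 3 libraries, and *Ahsg* was highest there, with 2580 CPM. *Fetub* was highest in mouse 3 (mean 253 CPM) and lowest in mouse 2 (mean 185 CPM). Age, litter and day of isolation are not given for the single mice in the sources used here, so the source of these differences was not tested.

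**Figure D4:**
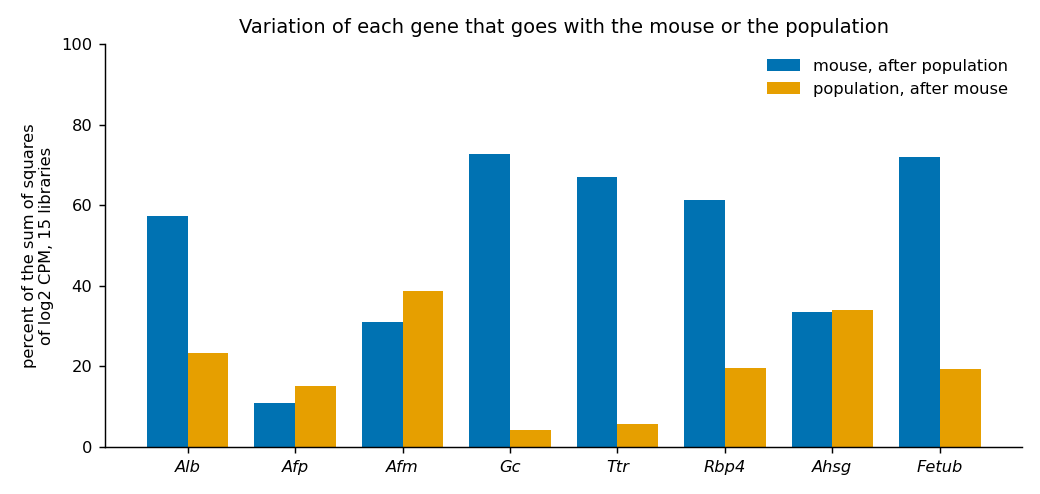
Percent of the sum of squares of log2 CPM over 15 libraries that goes with the mouse (blue, after the population) and with the population (orange, after the mouse) for each gene. The mouse has the larger share for *Alb*, *Gc*, *Ttr*, *Rbp4* and *Fetub*, from 57.4% to 72.7%.

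Likeness between genes was described by Pearson's correlation of log2 CPM over the 15 libraries. These come from 4 mice and are not independent, so no test was made. Among the members, *Gc* and *Rbp4* were most alike (r = 0.81), and *Afm* and *Rbp4* were most unlike (r = -0.73). After the mouse effect was removed from the log2 CPM values, *Gc* and *Rbp4* had r = 0.33, *Afm* and *Rbp4* had r = -0.79, and the most alike were *Alb* and *Ahsg* (r = 0.85, against 0.13 before). Among 7371 other genes with a mean log2 CPM of at least 3, the most similar to *Rbp4* were *Stard10*, a phospholipid transfer protein (r = 0.979), and *Por*, the reductase that supplies electrons to cytochrome P450 enzymes (r = 0.950). *Afm* was most like *C8a*, a complement component (r = 0.943), and *Cyp4v3* (r = 0.933), and *Gc* most like haptoglobin *Hp* (r = 0.930) and the urea cycle gene *Asl* (r = 0.911). *Ttr* was most like the urea cycle gene *Cps1* (r = 0.928) and the desmosome gene *Dsp* (r = 0.903). *Alb* was most like *Gpc4* (r = 0.908), *Ahsg* most like *Tmco1* (r = 0.960) and catalase *Cat* (r = 0.953), and *Fetub* most like *Gne*, an enzyme of sialic acid synthesis (r = 0.960), and *H1f4* (r = 0.925). The highest values for *Afp* were lower, 0.827 with *Sdccag8* and 0.754 with *Sik2*. For every member these genes were picked as the highest of 7371 correlations (7372 for *Afp*) over 15 libraries, and such picking alone gives high values.

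The genes next to the members on the chromosome were read from the same test. *Albfm1*, a further gene of the albumin family 7.4 kb beyond *Afm*, was expressed at 41.1 ± 4.50 CPM in 2n-whole and 44.0 ± 10.6 CPM in 4n-whole (SD, n = 4), with a log2 fold change of 0.06 (edgeR, adjusted p = 0.842). On the other side of *Alb*, *Ankrd17* had a log2 fold change of -0.02 (edgeR, adjusted p = 0.929), and *Rassf6*, beyond *Albfm1*, had -0.06 (edgeR, adjusted p = 0.908). *Cxcl5* and *Adamts3* were not tested for their low counts. Next to *Fetub* lie 3 other genes of secreted cystatin-fold proteins, the histidine-rich glycoprotein gene *Hrg* and the kininogen genes *Kng2* and *Kng1*. Their log2 fold changes in 4n-whole against 2n-whole were -0.36 (adjusted p = 0.0567), -0.36 (adjusted p = 0.0453) and -0.46 (edgeR, adjusted p = 0.0162), so that *Kng1* and *Kng2* passed the adjusted p-value and none reached the limit on the fold change. *Dnajb11*, an endoplasmic reticulum chaperone gene on the *Ahsg* side, had 0.06 (edgeR, adjusted p = 0.796). On the left of *Gc*, *Slc4a4*, 174.2 kb away, had 0.16 (edgeR, adjusted p = 0.326). Farther out, *Dck* at 630.5 kb had -0.24 (edgeR, adjusted p = 0.786) and *Mob1b* at 649.6 kb had -0.44 (edgeR, adjusted p = 0.0266).

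Among 28 other secreted binding proteins of plasma, all tested, 3 were called higher and 2 lower in 4n-whole than in 2n-whole, beside 1.74% and 1.73% of all tested genes, and the median log2 fold change was -0.15. When scaled to library totals alone, 3 were called higher and 0 lower, and the median was 0.05. The model without the mouse called 1 higher and 0 lower. With TMM and the mouse in the model, 19 of the 28 had an unadjusted p-value under 0.05, beside 20.4% of all tested genes. The insulin-like growth factor-binding proteins *Igfbp2* and *Igfbp1* rose by log2 fold changes of 0.73 and 0.80 (adjusted p = 2.55e-06 and 2.25e-05, edgeR), and *Pon1*, the paraoxonase carried on high-density lipoprotein, rose by 0.59 (adjusted p = 0.00766). The selenium carrier *Selenop* had a log2 fold change of -0.59 (edgeR, adjusted p = 0.000882), and the acute phase carrier *Orm1* -0.52 (adjusted p = 0.00385). *Trf*, the iron carrier transferrin, had -0.14 (edgeR, adjusted p = 0.235), at 15400 ± 1020 and 14000 ± 332 CPM (SD, n = 4). In 4n-bottom against 2n-whole *Igfbp2* was the only gene of the list called by edgeR (0.51, adjusted p = 0.00172), beside 0.463% of all tested genes, and DESeq2 called 0. In 4n-top against 2n-whole *Igfbp2*, *Igfbp1* and *Pon1* were called higher (0.85, 0.65 and 0.76), beside 0.961% of all tested genes, and DESeq2 also called 3. Without the mouse in the model, 0 were called in either comparison. In 4n-top against 4n-bottom 0 were called by edgeR or DESeq2 (2 at an unadjusted p-value under 0.05 with edgeR, beside 2.79% of all tested genes).

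The next list holds 31 genes of ligand handling, recycling and receptors, of which 28 were tested. Beside genes for the ligands of these carriers, it includes nuclear receptors such as *Rara* and *Thrb*, and other receptors such as *Insr* and *Asgr1*. In 4n-whole against 2n-whole 2 were called higher and 2 lower, with a median log2 fold change of 0.07, beside the 1.74% and 1.73% of all tested genes. With library totals alone, 5 were called higher and 2 lower, and the median was 0.28. The model without the mouse called 1 higher and 0 lower. *Cyp26a1*, which breaks down retinoic acid, rose by a log2 fold change of 1.08 (standard error 0.13, edgeR, adjusted p = 4.77e-06), and *Cyp27a1*, a sterol and vitamin D hydroxylase, rose by 0.65 (adjusted p = 5.62e-06). *Aldh1a1*, a retinaldehyde dehydrogenase, was at 0.39 (edgeR, adjusted p = 0.0249) under the limit on the fold change, and *Stra6l*, a receptor for retinol-binding protein, at -0.01 (adjusted p = 0.955). *Ttpa*, which loads vitamin E for secretion, had a log2 fold change of -0.72 (edgeR, adjusted p = 0.00752). *B2m*, the light chain of the receptor that rescues albumin from breakdown and of MHC class I, had -0.87 (adjusted p = 0.000355), whereas the heavy chain of that receptor, *Fcgrt*, had 0.10 (edgeR, adjusted p = 0.61). The deiodinase *Dio1* had 0.12 (edgeR, adjusted p = 0.636). In 4n-bottom against 2n-whole *Cyp26a1* was called (0.73), beside 0.463% of all tested genes, and DESeq2 also called 1. In 4n-top against 2n-whole *Cyp27a1*, *Cyp26a1* and *Slco1a1* were called higher (0.71, 1.01 and 0.57), beside 0.961% of all tested genes, while DESeq2 called 2. Without the mouse in the model, 0 were called in either comparison. In 4n-top against 4n-bottom 0 genes were called by edgeR or DESeq2 (2 at an unadjusted p-value under 0.05 with edgeR, beside 2.79% of all tested genes).

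Of 30 transcription factors known to act on *Alb* or *Afp*, 0 were called in any of the 4 comparisons by edgeR or DESeq2. Of all tested genes, edgeR called 3.47% in 4n-whole against 2n-whole and 0.0114% in 4n-top against 4n-bottom. The shares were 0.463% in 4n-bottom against 2n-whole and 0.961% in 4n-top against 2n-whole. In 4n-whole against 2n-whole, 4 had an unadjusted p-value under 0.05 with edgeR, beside 20.4% of all tested genes. The adjusted p-value alone was passed by 2, beside 5.47% of all tested genes. These were *Cebpa* with a log2 fold change of 0.45 (edgeR, adjusted p = 0.0142) and *Nfil3* with 0.37 (edgeR, adjusted p = 0.0247). The list had a median of -0.01 (0.19, with 2 called higher, when scaled to library totals alone). *Hnf4a*, a nuclear receptor central to hepatocyte identity, had 0.08 (edgeR, adjusted p = 0.662). Of 61 tested genes of the secretory pathway, from signal recognition to vesicle budding, 0 were called by edgeR in any comparison, and DESeq2 called 1, lower in 4n-whole than in 2n-whole. In that comparison 16 had an unadjusted p-value under 0.05 with edgeR, beside 20.4% of all tested genes. Of these 16, 1 passed the adjusted p-value upward, the chaperone-like *Creld2* (0.40, adjusted p = 0.0242, edgeR), beside 2.93% of all tested genes. A further 3 passed it downward, beside 2.54% of all tested genes. The median log2 fold change over the list was -0.10 (0.10 when scaled to library totals alone).

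Zonation genes moved with the 4n populations. Of 15 pericentral genes 14 were called higher in 4n-whole than in 2n-whole, with a median log2 fold change of 1.6, among them the cytochrome P450 genes *Cyp2a5* (1.6) and *Cyp1a2* (1.65) and the vitamin C synthesis gene *Gulo* (1.57). Of 14 periportal genes 5 were called lower, with a median of -0.26, among them *Apoa4* (-1.37), *Ctsc* (-0.88) and *Cyp2f2* (-0.73). With library totals alone, 14 pericentral genes were called higher (median 1.81) and 3 periportal genes lower (median -0.06), while 4 and 2 were called when the model left out the mouse. Over all tested genes 1.74% were called higher and 1.73% lower. In 4n-top against 4n-bottom the pericentral list had a median of 0.28, with 10 of 15 genes at a positive log2 fold change. With edgeR, 9 pericentral genes had an unadjusted p-value under 0.05, beside 2.79% of all tested genes. The only one called was glutamine synthetase *Glul*, lower in 4n-top (-0.90, edgeR, adjusted p = 0.0499), while DESeq2 called 2 lower and edgeR with library totals alone called 0. Beside these values the 7 members other than *Afp* had absolute log2 fold changes of at most 0.33 in each of the 4 comparisons.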

How the data were processed

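Hepatocyte RNA was sequenced from SMART-Seq Stranded libraries. Reads were aligned by the authors with STAR (2.7.11a per the processing notes) against GRCm39. They deposited raw counts per gene symbol from featureCounts, before their ComBat-seq adjustment for the mouse. The version of featureCounts, the annotation, the strand setting and the handling of pairs are not given in the sources used here. Between 74.2% and 81.4% of the counts from 1 to 10 were even, so both mates of a pair may have been counted.

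Counts were tested with edgeR 4.0.16 in R 4.3.3 (TMM, default filter on low counts with a count of at least 10 and a total of at least 15, 15 libraries, population plus mouse as replicate block), with Benjamini-Hochberg adjustment over 17488 genes. Standard errors and 95% intervals were derived from the quasi-likelihood F statistic. Log2 CPM values used a prior count of 2. The libraries of a mouse come from the same animal by the subject numbers of the labels, and after removal of the population means 20 of 21 such pairs correlated above 0.1 (mean 0.158). With the mouse in the model, p-values measure the spread left after the mouse and the population are fitted, and not the differences in level between these mice.

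The 8 genes and all lists were chosen with earlier results of these data known. Named genes were the 8 members, for each list the 3 called genes of lowest p (otherwise the gene of lowest p), the 3 nearest protein-coding genes on each side, and the 2 genes most similar to each member. Some of these genes are not reported here. Other genes are named for their known role and were chosen after the values were seen. The fits were tested on simulated data. Alternatives were no replicate block, DESeq2 1.42.0, ComBat-seq (sva 3.50.0) before DESeq2, other scalings, no filter, fewer libraries and each mouse left out, and after the data were seen also halved counts and no mitochondrial or ribosomal RNA genes. Of the 55984 symbols, 55865 had a GENCODE M39 locus.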

Additional observations from a re-analysis of the deposited data

Results flagged for a closer look

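Of 30 groups of 4 libraries tested with Dixon's criterion, 2 held a library beyond the critical value of 0.829, and chance flags about 1 group in 20 at this level. The 8 genes took 7.51% of the counts in the 2n-whole library of mouse 3, which stood above the other 3 libraries of that population (7.00% to 7.05%). *Alb* made up 80.3% of the counts of the 8 genes in the 4n-bottom library of mouse 4, below the other 3 libraries of that population.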

How the results depend on the processing

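The log2 fold changes of the 8 members in 4 comparisons were recomputed under 13 alternatives, giving 416 values, of which 368 kept direction and side of the adjusted p-value of 0.05, 9 lost significance, 16 gained it and 23 changed sign. The number of members called stayed at 0 under every alternative but 2 in 4n-whole against 2n-whole, which gave 2 with no limit on the fold change (*Rbp4* and *Afm*) and 1 with library totals alone (*Rbp4*). Without the replicate block, the calls over all genes fell from 607 to 40 in that comparison, *Rbp4* (0.35) and *Afm* (-0.33) no longer passed the adjusted p-value (adjusted p = 0.468 and 0.361, edgeR), and *Gc* and *Ahsg* changed sign in 4n-top against 4n-bottom (0.06 and -0.04). Leaving out a mouse gave 244 to 1025 calls over all genes in 4n-whole against 2n-whole, 0 to 29 in 4n-top against 4n-bottom (2 with all mice), 49 to 111 in 4n-bottom against 2n-whole (81) and 98 to 238 in 4n-top against 2n-whole (168). Under the other alternatives the counts ranged from 40 to 1509, 0 to 49, 0 to 275 and 2 to 538 in the same order, lowest without the replicate block.

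With library totals alone, which shift the median gene by 0.20, 0.047, 0.125 and 0.168, sign changed for *Afp* (0.07) and *Gc* (0.19) in 4n-whole against 2n-whole, *Gc* (0.04) in 4n-top against 4n-bottom, *Alb* (0.10) and *Ahsg* (0.06) in 4n-bottom against 2n-whole, and *Alb* (0.06) and *Ahsg* (0.13) in 4n-top against 2n-whole. With the compared populations only, *Afp* (-0.06) and *Gc* (0) changed sign in 4n-top against 4n-bottom, and *Rbp4* and *Afm* no longer passed the adjusted p-value in 4n-whole against 2n-whole (adjusted p = 0.138 and 0.146, edgeR). With a mouse left out, signs changed within -0.44 to 0.04 for *Afp* and -0.07 to 0.04 for *Gc* in 4n-whole against 2n-whole, within -0.15 to 0.04 for *Alb*, -0.02 to 0.66 for *Afp*, -0.06 to 0.04 for *Gc* and -0.06 to 0.10 for *Ahsg* in 4n-top against 4n-bottom, within -0.01 to 0.12 for *Ttr* in 4n-bottom against 2n-whole, and within -0.21 to 0.03 for *Alb*, -0.02 to 0.07 for *Gc* and -0.10 to 0.07 for *Ahsg* in 4n-top against 2n-whole. The cause was not tested. Over all alternatives *Rbp4* in 4n-whole against 2n-whole ranged from 0.24 to 0.54 and *Afm* from -0.43 to -0.13, past the adjusted p-value in 9 and 8 of 13. *Alb* passed it in 6 of 13 and *Ahsg* in 3. The low counts of *Afp* limit its precision.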
